A study of Mus musculus with 9 samples.

Results

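Immediate early response genes are named for being transcribed first after a stimulus, before any new protein is needed. The set described here holds 10 of the 53465 gene IDs of the mouse count table, matched by GRCm38 symbol: Fos, Fosb, Fosl1, Fosl2, Jun, Junb, Egr1, Ier2, Ier3 and Klf6. All 10 passed the filter on low counts and were among the 14088 genes tested. The RNA came from adult mouse fibroblasts (MAFs) in 3 groups of 3 libraries: cells given DPI for 72 h, cells given DPI for 24 h, and controls. No DPI library was taken before 24 h, so a first wave after DPI was not sampled. Whether each member is transcribed without new protein was not tested. The name DPI is read as diphenyleneiodonium, which blocks flavin-dependent enzymes, given the series' theme of targeting the FMN cofactor. No dose, mouse strain, age or sex is given in the labels, nor is it said what the controls received or when they were collected, so DPI and time in culture cannot be told apart. Nor do the labels say that replicates were separate cultures, so each p-value is set against library-to-library spread alone, and that spread may be technical.

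Fos and Jun family proteins are leucine zipper factors that pair to form AP-1, the dimer that binds the TGAGTCA element. Egr1 is a zinc finger factor of the same early wave, Klf6 is a Krüppel-like zinc finger factor, and Ier2 and Ier3 encode small early response proteins. In fibroblasts serum and growth factors switch these genes on through the ERK and p38 kinases and the factors SRF, ELK and CREB. Their messengers are short-lived, and dual-specificity phosphatases, Sprouty and Spred proteins then damp the signal.

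Total counts per library ranged from 15292736 to 17923656. Of 12 fibroblast markers, 9 exceeded 1 CPM (counts per 1000000 library counts) in every group, and Thy1 had 0 counts at 24 h and in controls. Their summed level was 11627 to 13076 CPM at 72 h, 13485 to 14146 CPM at 24 h and 7146 to 8633 CPM in controls, and 9 of 9 tested markers rose at 24 h and 4 at 72 h, beside 12.4% and 4.73% of all genes. Smooth muscle markers, 5 genes, summed to 7.78 to 9.53 CPM at 72 h, 15.7 to 19.4 CPM at 24 h and 26.1 to 33.1 CPM in controls. Of the 3 tested, 1 fell at 24 h and 2 at 72 h, beside 12.3% and 3.83% of all genes. Acta2 fell at both times. The macrophage, endothelial, epithelial, skeletal muscle and adipocyte lists summed to less than 10 CPM in every library. Epithelial markers summed to 6.44 to 6.67 CPM at 72 h, 1.35 to 1.58 CPM at 24 h and 1.38 to 2.17 CPM in controls. Endothelial markers summed to 1.10 to 2.16 CPM at 72 h, 3.59 to 4.71 CPM at 24 h and 1.99 to 2.11 CPM in controls. Their 1 tested gene, Kdr, was higher at 24 h than in controls and lower at 72 h than at 24 h, the same calls as Egr1, Fos and Junb. Adgre1, a defining macrophage gene, had 0 counts in all libraries, and Adipoq, Lep and Krt5 likewise. Other genes of these lists were detected, and 2 of 7 macrophage markers averaged over 1 CPM in every group. Of 6 epithelial markers, 2 did so at 72 h, and 1 at 24 h and in controls. The part of cell composition in the results below was not tested, and in bulk RNA fewer cells of a type and less RNA per cell cannot be told apart. Control replicate 2 stood apart, with a score of 27.0 on the second principal component, against 14.8 and 17.0 in control replicates 1 and 3, and 2.83% of its counts in ribosomal protein genes, against 2.12% and 2.14%.

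Several members share features of gene structure and sequence. Jun, Junb and Ier2 are single-exon genes, 3 of 10 against 2.86% of the 11912 coding genes tested, and Junb and Ier2 lie 312 kb apart on chromosome 8. The pentamer ATTTA, the core of the AU-rich elements that shorten messenger life, was counted on the sense strand of each 3′ UTR. Its density exceeded the 1.34 per kb median of 11813 tested coding genes in 8 of 10 members, with 8.16 per kb in Ier3, 4.91 in Fos, 4.12 in Junb and 3.24 in Jun. Klf6 had 2.25, and nearer the median were Fosl2 at 1.72, Egr1 at 1.64 and Fosl1 at 1.57, the last from 1 match. Fosb, at 0.466 per kb, and Ier2, with 0, were the exceptions. The longer TTATTTATT occurred in the 3′ UTRs of Fos and Fosl2, 2 of 10 members, against 8.25% of those genes.

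RefSeq promoter windows, 250 bases before to 50 after the annotated start, were at hand for 7 members: Fos, Fosb, Fosl2, Jun, Junb, Ier3 and Klf6. They were searched on both strands for the CArG box (the SRF site), the CRE TGACGTCA and its half-site TGACG, the AP-1 site TGAGTCA, the AP-1-like TGACATCA, the EGR site GCGNGGGCG and the TATA box TATAAA. The half-site TGACG, which also lies within TGACGTCA, occurred in Fos, at 129 and 66 bases before the start, in Junb at 106 and in Fosb at 60, and 20.8% of 32851 windows of the same length hold it. TGACATCA, held by 3.62% of windows, occurred in Jun at 45 bases before the start and in Klf6 at 119. GCGNGGGCG, held by 5.55%, occurred in Fosl2 and Fosb, and TATAAA, held by 13.6%, in Fos at 33 bases before the start and in Junb at the RefSeq start, which is 30 bases before the GENCODE start. The Fosl2 match, 79 bases before the RefSeq start, lies after the GENCODE start, within the gene. TGACGTCA, TGAGTCA and the CArG box, held by 1.79%, 5.2% and 1.63% of windows, were in none of the 7, and the Ier3 window held none of the motifs. Only exact matches within the windows were counted. Sites farther than 250 bases before the start, or of looser form, were not searched for, so these genes may still hold them. Shown here are a pair of members highest at 24 h, Fos and Junb, and a pair above control at 72 h, Jun and Klf6, with the motifs in capitals, from GRCm38.p6 (chr12:85473640-85473939 and chr13:5861239-5861538 on the plus strand, chr8:84978699-84978998 and chr4:95052173-95052472 on the minus strand).
Fos: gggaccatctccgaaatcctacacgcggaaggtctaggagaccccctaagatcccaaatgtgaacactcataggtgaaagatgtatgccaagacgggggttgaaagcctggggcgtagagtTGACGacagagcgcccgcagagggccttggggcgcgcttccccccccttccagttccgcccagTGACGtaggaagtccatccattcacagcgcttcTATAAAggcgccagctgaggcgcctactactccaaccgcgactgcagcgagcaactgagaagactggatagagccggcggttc
Junb: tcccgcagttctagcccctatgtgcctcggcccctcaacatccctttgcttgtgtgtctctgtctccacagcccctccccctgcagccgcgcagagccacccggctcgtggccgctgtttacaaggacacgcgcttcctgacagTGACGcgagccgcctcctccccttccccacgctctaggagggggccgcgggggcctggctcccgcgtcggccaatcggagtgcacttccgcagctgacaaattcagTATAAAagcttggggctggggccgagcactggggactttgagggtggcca
Jun: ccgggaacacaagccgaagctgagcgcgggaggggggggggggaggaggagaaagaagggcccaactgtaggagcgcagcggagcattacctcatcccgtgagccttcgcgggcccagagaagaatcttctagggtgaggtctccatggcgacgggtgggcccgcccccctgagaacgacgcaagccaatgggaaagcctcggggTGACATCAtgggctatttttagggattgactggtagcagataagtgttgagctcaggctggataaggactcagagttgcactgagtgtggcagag
Klf6: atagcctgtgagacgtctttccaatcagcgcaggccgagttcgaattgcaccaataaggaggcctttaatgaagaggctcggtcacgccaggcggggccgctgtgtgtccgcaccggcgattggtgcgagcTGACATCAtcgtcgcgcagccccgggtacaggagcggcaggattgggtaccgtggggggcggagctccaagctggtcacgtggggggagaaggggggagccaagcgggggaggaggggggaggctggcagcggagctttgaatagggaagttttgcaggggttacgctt
These 4 windows were picked with the values and motif matches known, so their matches carry no evidence of a pattern. Fosb holds TGACG and was not highest at 24 h, and Fosl2 rose at 72 h and holds no TGACATCA.

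Compared per length, in RPKM from TMM-scaled counts (a library scaling) over all exonic bases, Jun and Klf6 were the most abundant members and Fosb and Fos the least. In controls Jun averaged 54.4 ± 5.73, Klf6 49.3 ± 0.555, Ier2 48.4 ± 7.52 and Ier3 38.4 ± 7.55 RPKM (SD, n = 3), and their ranges overlapped from each to the next. Junb followed at 25.4 ± 1.49 RPKM, clear of its neighbours. Fosl2 at 19.0 ± 2.29, Fosl1 at 17.1 ± 0.276 and Egr1 at 16.7 ± 1.28 RPKM overlapped in controls, and Fos and Fosb stood far below at 1.14 ± 0.220 and 0.499 ± 0.221 RPKM. At 24 h Egr1 had 33.8 to 40.2 RPKM, above all libraries of Fosl1 and Fosl2, where in controls it overlapped both.

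**Figure D1:**
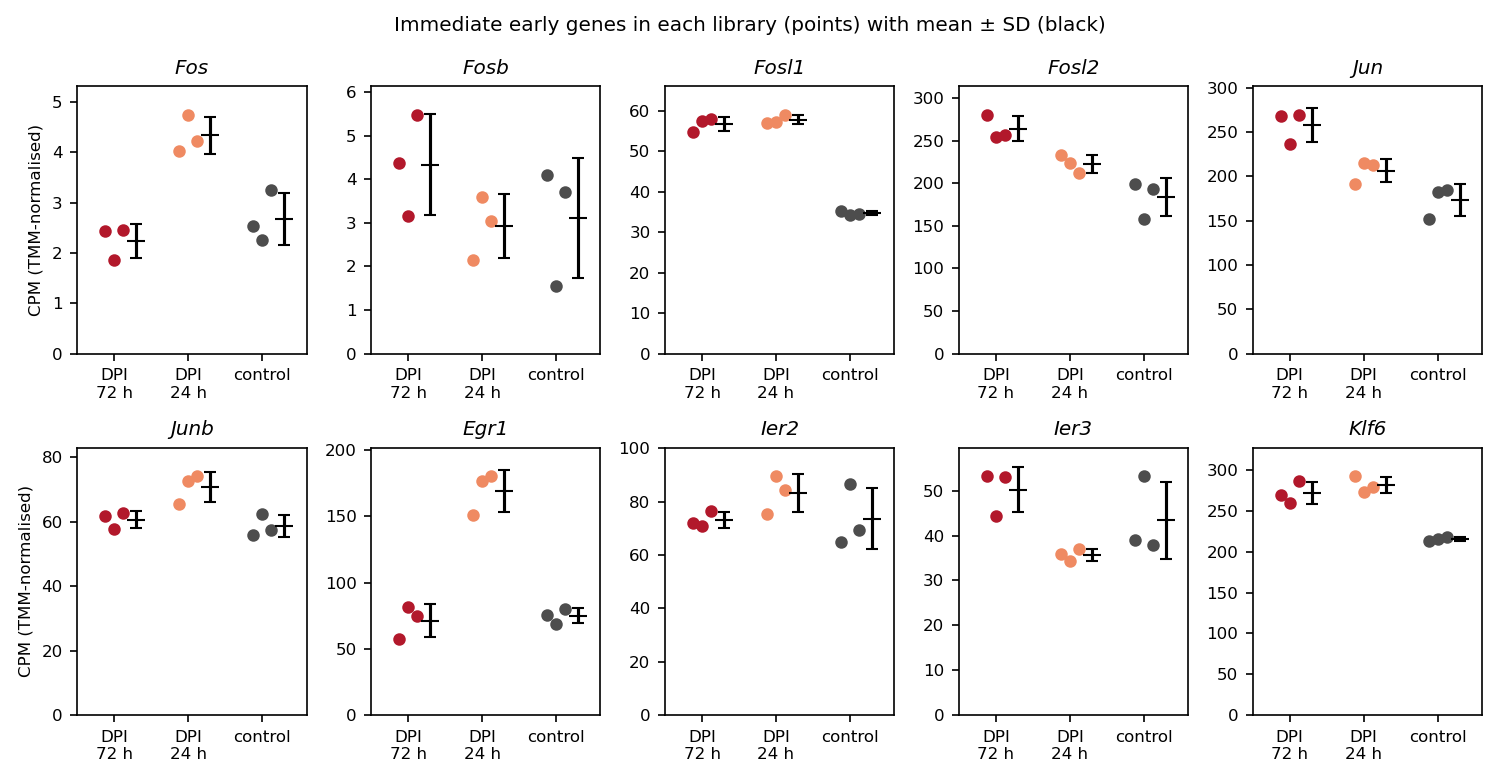
CPM (TMM-normalised, linear axis from 0) of each member in each library, as points, with the group mean ± SD in black, n = 3 libraries a group; DPI 72 h is left, DPI 24 h in the middle and control right. Egr1 and Fos stand highest at 24 h, Fosl1 and Klf6 are above control at both times, and control replicate 2 is the high control point in Ier2 and Ier3 and the low one in Fosl2 and Fosb.

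At 24 h, 6 of 10 members rose and 0 fell, against 24.7% of all genes tested that passed, 12.4% higher and 12.3% lower, at an adjusted p under 0.05 (edgeR quasi-likelihood test, Benjamini-Hochberg over all genes). The 6 were Egr1, Fosl1, Fos, Klf6, Fosl2 and Junb, and the median log2 fold change of the 10 was 0.28, beside -0.01 over all genes. Groups did not overlap in 8 of 10 members, against 40.5% of all genes. The count was 3 without DPI 24 h replicate 2 and 3 without DPI 24 h replicate 3, namely Egr1, Fosl1 and Klf6 both times, and 3 with upper quartile scaling. It was 7 without control replicate 2. The members were chosen with earlier results of these data known, so their counts beside those of all genes, here and below, are descriptions.

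At 72 h, 4 of 10 members rose and 0 fell, against 8.56% of all genes that passed, 4.73% higher and 3.83% lower. Fosl1, Jun, Fosl2 and Klf6 made up the 4, with a median over the 10 of 0.27 beside -0.01 over all genes. Groups did not overlap in 4 members, against 27.1% of all genes. The count was 4 with each library left out except control replicate 2, where Ier3 made it 5. The comparisons at 24 h and 72 h share the 3 controls.

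Set directly against each other, 72 h and 24 h differed in 5 of 10 members, against 21.3% of all genes. Of these, Jun and Ier3 were higher at 72 h, against 10.1% of all genes, and Egr1, Fos and Junb were lower, against 11.2%. Groups did not overlap in 6 members, against 46.2% of all genes. The count fell to 2, 3 and 2 when DPI 72 h replicates 1, 2 and 3 were left out in turn, and to 3, 1 and 3 for DPI 24 h replicates 1, 2 and 3. The count was 7 without control replicate 2, and Egr1 alone kept its call with every library left out.

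**Figure D2:**
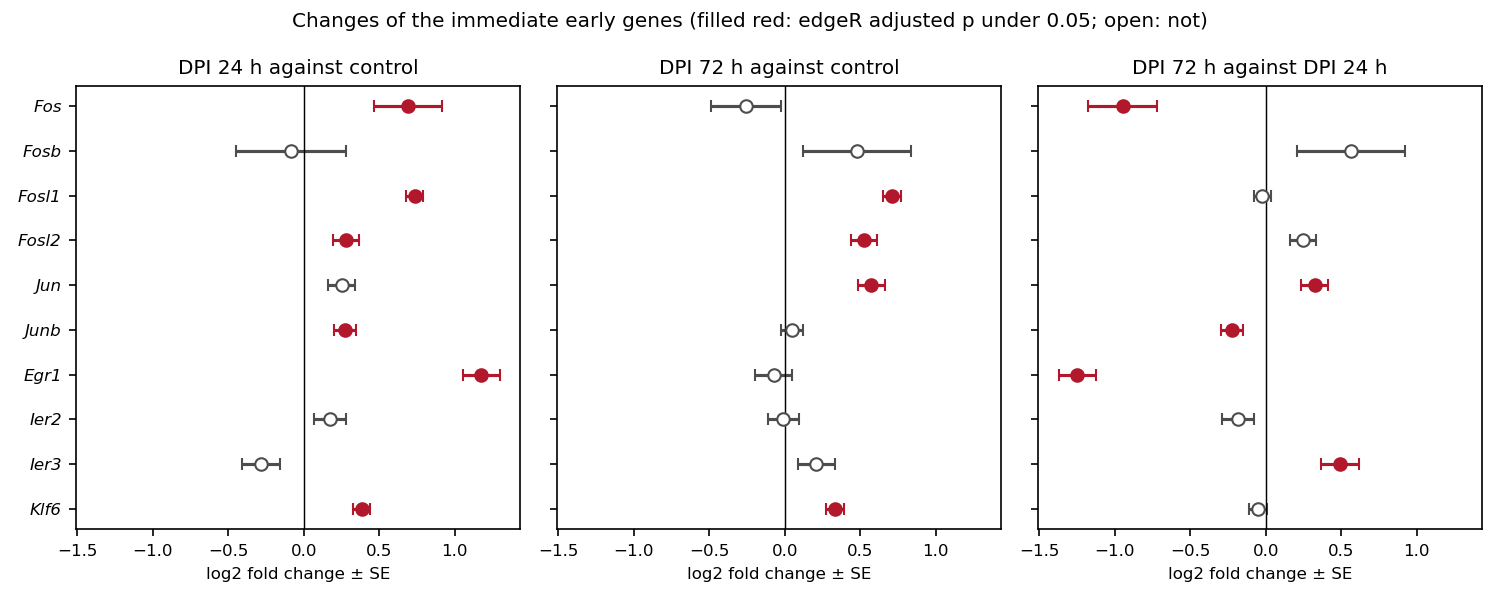
Log2 fold change ± SE (edgeR) of each member in the 3 comparisons, filled red where the adjusted p was under 0.05 and open where it was not. Egr1 lies at 1.18 for 24 h against control, -0.07 for 72 h against control and -1.25 for 72 h against 24 h, whereas Fosl1 lies at 0.73, 0.71 and -0.03.

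Egr1, the zinc finger factor of the early wave, had 57.1, 81.5 and 75.1 CPM at 72 h, 151, 177 and 180.4 CPM at 24 h, and 75.7, 69.0 and 80.4 CPM in controls. The 24 h libraries stood above all others, and those of 72 h overlapped the controls. Its increase at 24 h was 2.26-fold, or 1.18 ± 0.12 in log2 units (SE; edgeR adjusted p = 6.27e-05), and it passed under all alternatives tried. At 72 h it was -0.07 ± 0.12 from control (edgeR adjusted p = 0.79) and -1.25 ± 0.12 from 24 h (edgeR adjusted p = 4.10e-05). The gene spans 34859823 to 34864984 of chromosome 18 (GRCm38).

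Fos (chromosome 12, 85473890 to 85477273), the founding member of its family, had 2.43, 1.85 and 2.45 CPM at 72 h, 4.04, 4.75 and 4.23 CPM at 24 h, and 2.53, 2.26 and 3.26 CPM in controls. These rest on 30 to 40, 66 to 78 and 41 to 51 counts a library. The 24 h libraries again stood above the rest, while 72 h and control overlapped. The log2 change at 24 h was 0.69 ± 0.23 (SE, edgeR adjusted p = 0.045). It held without DPI 72 h replicate 2 or control replicate 3 and was lost without any other library, at adjusted p = 0.058 and 0.060 (DPI 72 h replicates 1 and 3), 0.080, 0.138 and 0.103 (DPI 24 h replicates 1, 2 and 3) and 0.103 and 0.098 (control replicates 1 and 2). It was also lost with upper quartile scaling (0.056), with no filter on low counts (0.138) and with only the 6 libraries compared (0.066). At 72 h Fos was lower than at 24 h by a log2 change of -0.95 ± 0.23 (edgeR adjusted p = 0.013), lost at 0.054 without replicate 2 of either DPI group, and its change from control was -0.26 ± 0.23 (adjusted p = 0.58).

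Fosl1 (chromosome 19, 5447547 to 5455946), also called Fra-1, a Fos relative that lacks the transactivation domain of Fos, had 54.8, 57.6 and 57.9 CPM at 72 h, 56.9, 57.3 and 59.0 CPM at 24 h, and 35.3, 34.3 and 34.5 CPM in controls. Both DPI groups were above every control, with little spread in any group. It rose 1.66-fold at 24 h, or 0.73 ± 0.06 in log2 units (SE; edgeR adjusted p = 8.84e-06), and 1.64-fold at 72 h, 0.71 ± 0.06 (adjusted p = 2.66e-05), and both calls held under all alternatives tried. Its difference between the times was -0.03 ± 0.06 (adjusted p = 0.81). Fosl1 shares 1163 exonic bases with Ccdc85b on the other strand, and the strand setting of the counting is not given in the sources used here, so reads of the pair may not be told apart. Ccdc85b had 12.6 to 14.96 CPM at 72 h, 12.3 to 13.5 at 24 h and 13.9 to 17.5 in controls, with log2 changes of -0.23 at 24 h and -0.11 at 72 h, neither of which passed.

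Fosl2 (chromosome 5, 32135801 to 32157842), or Fra-2, the other Fos relative of that kind, had 281, 254 and 257 CPM at 72 h, 233, 224 and 212 CPM at 24 h, and 199, 158 and 193 CPM in controls. The 3 groups did not overlap, with 72 h highest and control lowest. Its log2 change was 0.53 ± 0.09 at 72 h (SE, edgeR adjusted p = 0.0033), which held with each library left out, and 0.28 ± 0.09 at 24 h (adjusted p = 0.040). The 24 h call was lost when DPI 72 h replicate 2 (adjusted p = 0.058) or 3 (0.060) was left out, at 0.133, 0.106 and 0.066 without DPI 24 h replicates 1, 2 and 3, and at 0.051 without control replicate 3. It was also lost with upper quartile scaling (0.058) and with only the 6 libraries compared (0.076). Between the times the change was 0.25 ± 0.09 (adjusted p = 0.072). It passed without control replicate 2 (0.0022), with upper quartile scaling (0.040), with no filter on low counts (0.027), with DESeq2 (0.042) and with only the 6 libraries compared (0.0029).

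Fosb (chromosome 7, 19302696 to 19310051), which encodes a further Fos paralogue, had 4.37, 3.15 and 5.48 CPM at 72 h, 2.14, 3.59 and 3.04 CPM at 24 h, and 4.10, 1.54 and 3.71 CPM in controls. All 3 groups overlapped. None of its comparisons passed, with log2 changes of -0.08 ± 0.37 at 24 h and 0.48 ± 0.36 at 72 h (SE, edgeR adjusted p = 0.90 and 0.49), and the sign at 24 h turned without any of DPI 24 h replicate 1 (0.09), control replicate 1 (0.16) and control replicate 3 (0.05).

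Jun (chromosome 4, 95049034 to 95052222), the partner that can also pair with itself, had 268, 236 and 269.6 CPM at 72 h, 191, 215 and 213 CPM at 24 h, and 152, 183 and 185 CPM in controls. The 3 groups did not overlap. Its log2 change was 0.57 ± 0.09 at 72 h (SE, edgeR adjusted p = 0.0021), which held with each library left out. At 24 h it was 0.25 ± 0.09 and did not pass (adjusted p = 0.063), but did without control replicate 2 (0.021), with DESeq2 (0.032) and with no filter on low counts (0.020). Jun was higher at 72 h than at 24 h by 0.32 ± 0.09 (adjusted p = 0.025), lost at 0.090 and 0.097 without DPI 72 h replicates 1 and 3 and at 0.110, 0.054 and 0.059 without DPI 24 h replicates 1, 2 and 3. Junos, an antisense RNA that shares 232 exonic bases with Jun, had 14 to 18 counts at 72 h, 22 to 49 at 24 h and 7 to 15 in controls. Its log2 change at 24 h was 1.61 ± 0.43 (edgeR adjusted p = 0.019), lost at 0.10 without DPI 24 h replicate 3 and 0.052 without control replicate 1.

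Junb (chromosome 8, 84974484 to 84978718), a Jun relative with weaker activity on single AP-1 sites, had 61.6, 57.7 and 62.6 CPM at 72 h, 65.6, 72.6 and 74.1 CPM at 24 h, and 55.8, 62.4 and 57.5 CPM in controls. The 24 h libraries were above both other groups, which overlapped. Its log2 change at 24 h was 0.27 ± 0.07 (SE, edgeR adjusted p = 0.018), lost at 0.075 and 0.091 without DPI 24 h replicates 2 and 3 and at 0.064 and 0.061 without control replicates 1 and 3, and at 0.0501 with upper quartile scaling. At 72 h it was 0.05 ± 0.07 from control (adjusted p = 0.75) and -0.22 ± 0.07 from 24 h (adjusted p = 0.048). The last call held without DPI 24 h replicate 1 or control replicate 2 and was lost without any other library, at adjusted p = 0.0999, 0.171 and 0.091 (DPI 72 h replicates 1, 2 and 3), 0.156 and 0.190 (DPI 24 h replicates 2 and 3) and 0.056 and 0.068 (control replicates 1 and 3). It was also lost with upper quartile scaling (0.086), without the filter on low counts (0.074), with a mean CPM of at least 1 (0.052) and with limma voom (0.051). Junb shares 173 exonic bases with Prdx2 on the other strand, which had 190.0 to 200.4 CPM at 72 h, 173 to 183 at 24 h and 166 to 235 in controls and passed in no comparison.

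**Figure D3:**
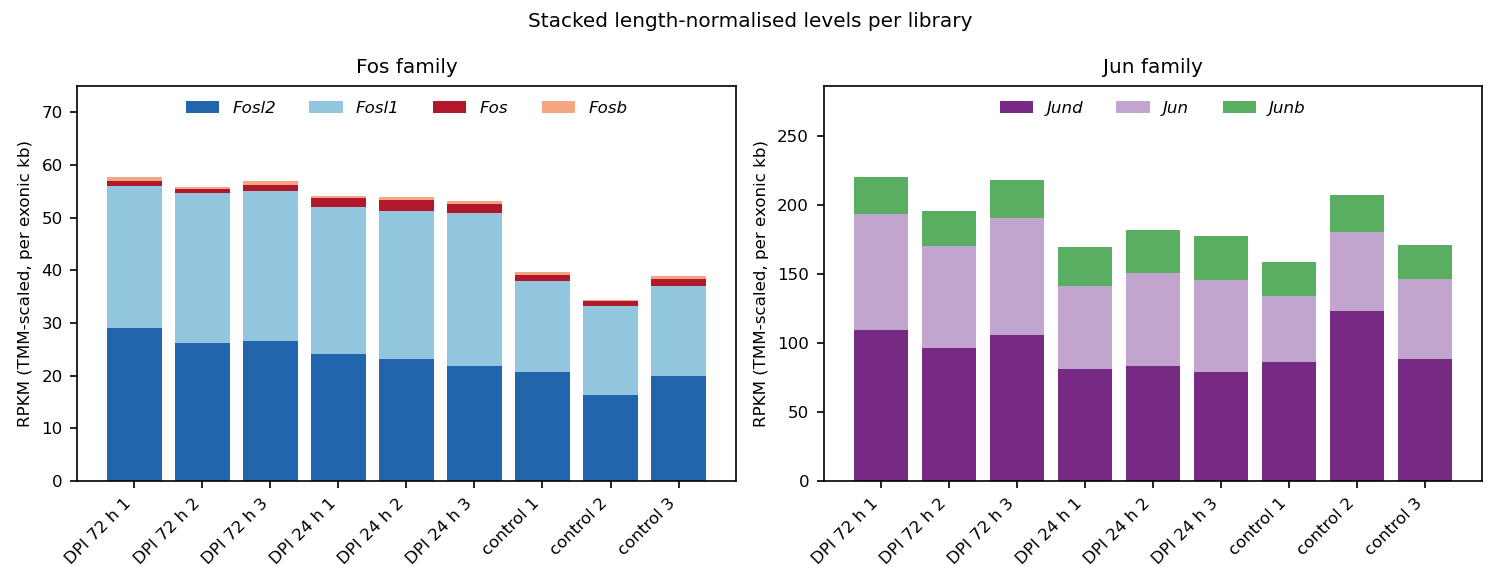
Stacked RPKM (TMM-scaled, per exonic kb, axis from 0) of the Fos family, left panel, and the Jun family, right panel, in each library, 3 at DPI 72 h, 3 at DPI 24 h and 3 controls. Fosl1 and Fosl2 fill nearly all of the Fos family bars, whose totals are 55.9 to 57.7 at 72 h, 53.2 to 54.1 at 24 h and 34.4 to 39.7 in controls, whereas the Jun family totals of 72 h (195 to 220.1) and 24 h (169 to 182) both overlap those of controls (158 to 207).

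Within the Fos family, Fosl1 and Fosl2 made up nearly all transcripts in every library. Fosl1 held 49.1% ± 2.10 of the family's RPKM at 72 h, 52.9% ± 1.52 at 24 h and 45.5% ± 3.04 in controls (SD, n = 3), and Fos held 1.68% ± 0.231, 3.43% ± 0.290 and 3.02% ± 0.469. The Fos share at 72 h lay below all libraries of the other groups, while those of 24 h and control overlapped. In the Jun family, with Jund, the remaining member, added for the sum, Jun held 38.3% ± 0.459 at 72 h, 36.7% ± 1.16 at 24 h and 30.6% ± 3.16 in controls. Jund averaged 173 ± 11.3 CPM at 72 h, 135 ± 3.63 at 24 h and 165 ± 34.5 in controls and passed in no comparison, and control replicate 2 was its highest library at 205 CPM. These shares are descriptions, carry no test, and depend on the exonic lengths used.

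Klf6 (chromosome 13, 5861482 to 5870394) had 269.6, 259.8 and 287 CPM at 72 h, 293, 274 and 279.5 CPM at 24 h, and 214, 216 and 219 CPM in controls. All DPI libraries were above all controls, and the DPI groups overlapped. It rose 1.3-fold at 24 h, or 0.38 ± 0.06 in log2 units (SE; edgeR adjusted p = 0.00087), and 1.26-fold at 72 h, 0.33 ± 0.06 (adjusted p = 0.0047), and both calls held with each library left out. Its difference between the times was -0.05 ± 0.06 (adjusted p = 0.60).

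Ier2 (chromosome 8, 84661331 to 84662852), whose protein acts in the nucleus, had 72.0, 71.0 and 76.6 CPM at 72 h, 75.4, 89.5 and 84.5 CPM at 24 h, and 65.0, 86.6 and 69.3 CPM in controls. The groups overlapped, and control replicate 2 was the high control. None of its comparisons passed, with log2 changes of 0.17 ± 0.10 at 24 h and -0.01 ± 0.10 at 72 h (SE, edgeR adjusted p = 0.26 and 0.97). Without control replicate 2 the changes were 0.31 at 24 h (adjusted p = 0.0058) and 0.13 at 72 h (0.30), and that between the times, -0.18 with all libraries, passed at 0.042, as it did with only the 6 libraries compared (0.0496). The sign at 72 h also turned without DPI 72 h replicates 1 and 2, at 0.0031 and 0.01.

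Ier3 (chromosome 17, 35821684 to 35822923), also called IEX-1, which modulates cell survival and ERK signalling, had 53.2, 44.4 and 53.1 CPM at 72 h, 35.8, 34.2 and 36.9 CPM at 24 h, and 39.0, 53.2 and 37.9 CPM in controls. The 24 h libraries were the lowest, all below the controls, and control replicate 2, at 53.23 CPM, was just above the highest 72 h library, at 53.20 CPM. Its log2 changes from control were -0.28 ± 0.13 at 24 h and 0.21 ± 0.12 at 72 h (SE, edgeR adjusted p = 0.13 and 0.36), neither of which passed, though that at 24 h did with no filter on low counts (0.024). Without control replicate 2 they were -0.11 (adjusted p = 0.36) and 0.38 (adjusted p = 0.0077). Ier3 was higher at 72 h than at 24 h by 0.49 ± 0.13 (adjusted p = 0.017), a call lost at 0.068 and 0.069 without DPI 72 h replicates 1 and 3 and at 0.058 and 0.070 without DPI 24 h replicates 1 and 2.

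By Pearson's r of log2 CPM over the 9 libraries, the genes most like Fos among 9871 candidates were Knop1 (0.991), Ctns (0.972) and Wdr37 (0.971). Those most like Fosl1 were Gfra2 (0.994), Timp2 (0.991) and Scd2 (0.991), and those like Egr1 included Ikbip (0.989) and Ttk (0.986). Gfra2, a receptor for GDNF family ligands, averaged 58.3 CPM at 72 h, 55.6 at 24 h and 26.9 in controls. Ttk, a mitotic checkpoint kinase gene, averaged 67.8 CPM at 72 h, 81.4 at 24 h and 69.4 in controls. All points share the same 9 libraries in 3 groups, so these values are descriptions.

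Around the 10 members, 5 lists of the pathway held 93 genes in all, of which 83 were tested. At 24 h 34 of them rose and 7 fell, and at 72 h 25 rose and 3 fell. Of all genes tested, 12.4% rose and 12.3% fell at 24 h, and 4.73% rose and 3.83% fell at 72 h. Their median log2 change was 0.23 at 24 h and 0.15 at 72 h, beside -0.01 over all genes. Without control replicate 2 the counts were 40 and 7 at 24 h and 32 and 4 at 72 h. The 5 lists were chosen with earlier results of these data known, so their counts beside those of all genes are descriptions.

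Among 29 tested immediate early genes outside the members, 13 rose and 3 fell at 24 h, and 10 rose and 0 fell at 72 h, where 24.7% and 8.56% of all genes passed. Phlda1, a pleckstrin-like early gene, had 86.2 ± 1.02 CPM at 72 h, 117 ± 8.09 at 24 h and 63.9 ± 3.01 in controls (SD, n = 3), with log2 changes of 0.87 at 24 h and 0.43 at 72 h (edgeR adjusted p = 7.18e-06 and 0.0021). Maff, a small MAF factor, had 8.13 ± 0.464 CPM at 72 h, 16.5 ± 1.1 at 24 h and 7.96 ± 1.04 in controls, with a log2 change of 1.05 at 24 h (edgeR adjusted p = 0.00016). The matricellular gene Ccn2 and the TGF-beta responsive Klf10 rose at both times, by 0.70 and 0.59 and by 0.68 and 0.61 on the log2 scale. Klf4 and Trib1 rose at 72 h, by 0.51 and 0.59, and had changes of 0.17 and 0.24 at 24 h that did not pass. These calls against control held with each library left out.

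Other AP-1 family and partner genes, 11 of 13 tested, moved both ways, with 3 up and 3 down at 24 h and 2 up and 1 down at 72 h. Of all genes, 12.4% were up and 12.3% down at 24 h, and 4.73% up and 3.83% down at 72 h. Jdp2, a repressor that pairs with Jun proteins, fell to 30.1 ± 1.04 CPM at 24 h, against 42.2 ± 2.6 in controls (SD, n = 3), and was 54.7 ± 2.17 at 72 h, with log2 changes of -0.49 and 0.37 (edgeR adjusted p = 0.00056 and 0.0059). Atf3, a stress-induced partner also counted among the immediate early genes, fell at 24 h by 0.66 on the log2 scale and did not pass at 72 h (0.01). Maf rose at both times, by 0.58 and 0.54, and Atf2, a CRE-binding partner of Jun, rose at 24 h by 0.31. Mafg fell by 0.26 at 24 h and by 0.27 at 72 h. The 24 h call of Mafg was lost when DPI 24 h replicate 1 (adjusted p = 0.096) or 2 (0.099) was left out, and its 72 h call held without control replicate 2 or 3 and was lost without any other library, at 0.061 to 0.157. Without control replicate 2 the list's counts were 5 up and 3 down at 24 h and 4 up and 1 down at 72 h.

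Upstream, 5 of 22 kinase and SRF pathway genes rose and 2 fell at 24 h, and 3 rose and 0 fell at 72 h. The 7 of 22 that passed at 24 h are near the 24.7% of all genes, 12.4% higher and 12.3% lower. At 72 h the 3 of 22, all higher, stand beside 8.56% of all genes, 4.73% higher and 3.83% lower. Rps6ka4, which encodes the kinase MSK2, and the ETS factor gene Elk3 rose at both times, Rps6ka4 by 0.54 and 0.46 and Elk3 by 0.50 and 0.52 on the log2 scale, and these held with each library left out. Elk1 rose by 0.28 and Mapk9 and Map2k1, the genes of JNK2 and MEK1, fell by 0.34 and 0.27 at 24 h, Map2k1 with adjusted p = 0.068 without DPI 24 h replicate 2. Mrtfa rose by 0.49 at 72 h, with adjusted p = 0.066 without DPI 72 h replicate 1. Without control replicate 2 the counts were 7 up and 3 down at 24 h and 4 up and 1 down at 72 h, and 4 genes in all passed at 24 h without DPI 24 h replicate 2.

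Of 16 tested feedback inhibitors, 7 rose and 0 fell at 24 h, and 6 rose and 1 fell at 72 h, with medians of 0.35 and 0.33. Of all genes, 24.7% passed at 24 h and 8.56% at 72 h, with a median of -0.01 at each time. Spry1, a Sprouty inhibitor of receptor signalling, had 5.66 ± 1.02 CPM at 72 h, 15.7 ± 0.726 at 24 h and 3.61 ± 0.213 in controls (SD, n = 3), and its log2 change at 24 h was 2.12 ± 0.15 (SE; edgeR adjusted p = 4.66e-06). Its 72 h change of 0.65 (adjusted p = 0.027) held without DPI 72 h replicate 2 and control replicate 2 and was lost without any other library, at 0.051 to 0.107. Spred2, Spry2 and the ERK phosphatase gene Dusp5 rose at both times, by 0.78 and 0.48, 0.53 and 0.79, and 0.91 and 0.72. Nab2, a co-repressor of EGR proteins and itself an Egr1 target, rose by 0.38 at 24 h and had 0.06 at 72 h, which did not pass. Dusp6 rose by 0.90 at 72 h. Dusp4, a nuclear ERK phosphatase gene named after its values were seen, fell there by 0.97, with 3.22 ± 0.581 CPM at 72 h, 6.74 ± 0.518 at 24 h and 6.33 ± 0.837 in controls (SD, n = 3). The Dusp4 call was not checked with libraries left out.

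Of 13 textbook AP-1 targets, 8 were tested, since Mmp3, Mmp9, Mmp10, Mmp13 and Il6 did not pass the filter. Of the 8, 7 rose and 0 fell at 24 h, and 4 rose and 1 fell at 72 h, beside 12.4% and 4.73% of all genes that rose. Plau, the urokinase gene, had 47.7 ± 3.36 CPM at 72 h, 77.7 ± 3.02 at 24 h and 39.7 ± 2.17 in controls (SD, n = 3), and its log2 change at 24 h was 0.97 ± 0.07 (SE; edgeR adjusted p = 6.10e-06). Its 72 h change of 0.27 (adjusted p = 0.0497) held without DPI 72 h replicate 2 and control replicate 2 and was lost without any other library, at 0.080 to 0.181. Ccl2, a monocyte chemokine gene, had 7.27 ± 2.06 CPM at 72 h, 33.9 ± 1.05 at 24 h and 15.9 ± 2.32 in controls, with log2 changes of 1.09 at 24 h and -1.14 at 72 h (edgeR adjusted p = 0.00064 and 0.0019). Cd44 and Ccnd1, the cyclin D1 gene, rose at both times, by 0.62 and 0.51 and by 0.54 and 0.57. Timp1 rose by 0.39 at 24 h.

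**Figure D4:**
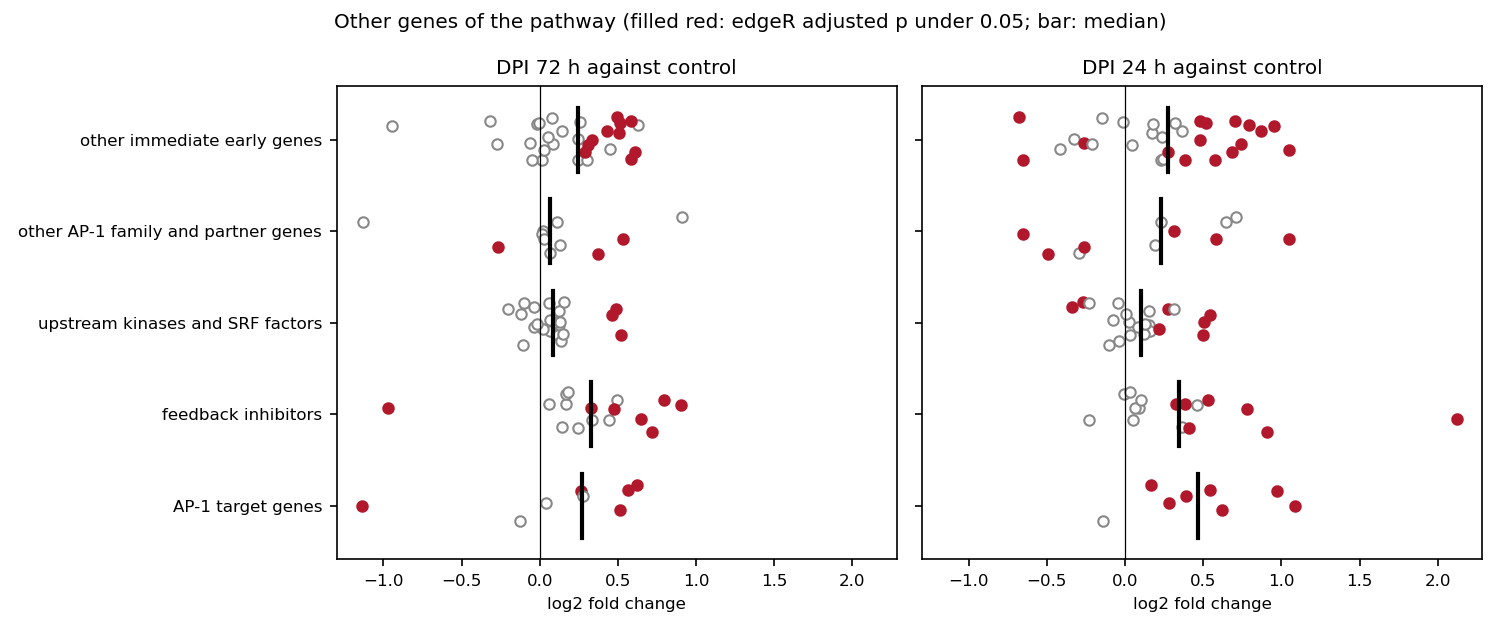
Log2 fold change of each tested gene of the 5 lists against control, at 72 h in the left panel and 24 h in the right, filled red where the edgeR adjusted p was under 0.05, with a bar at each list's median. The point farthest right is Spry1 at 24 h (2.12), and the upstream list has the smallest median at 24 h (0.10).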

How the data were processed

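TruSeq libraries of column-purified RNA were read on a HiSeq2500, per the labels' protocols. STAR, RSEM, edgeR, limma, cutadapt, Trim Galore and the build GRCm38 are named, with no version or role, per the submitters' processing notes. Annotation release, strand setting and any rounding were not given in the sources used here. The authors deposited raw counts, whole numbers per Ensembl gene, and a second table named normalized, whose 159498 values all equalled those counts exactly and which was not used further. Symbols, coordinates and exonic lengths came from GENCODE M21 (GRCm38), which lacked 191 IDs with 0.035% of counts.

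Genes were kept with filterByExpr by group, which left at least 99.9% of each library's counts, scaled by TMM (factors 0.98 to 1.02) and fitted in edgeR 4.0.16 (R 4.3.3), with 9 libraries, 1 mean per group and glmQLFTest (two-sided), with Benjamini-Hochberg adjustment over all 14088 genes. SE is the log2 change over the root of F. Alternatives were other scalings, filters, DESeq2 1.42.0, limma voom 3.58.1, a replicate block, fits of the 6 libraries compared, stricter thresholds, and leaving out libraries in turn; those for genes and lists beyond the members were added after seeing the data. An exact permutation test of 3 against 3 libraries cannot reach a p under 0.1. Replicate pairs differed beyond counting noise (chi-square per degree of freedom 3.62 to 31.3). The highest values, 31.3 and 26.6, were of control replicate 2 with control replicates 1 and 3, and every other pair had at most 7.68. In counts simulated for 24 h against control (13693 genes), 52.2%, 77.6% and 90.9% of genes changed 1.5-fold, 2-fold and 4-fold were recovered, and 1.34% of calls were unchanged genes. Only 67, 67 and 66 genes were so changed, far fewer than the 3478 that passed in the data, so the rates may differ there. No change under 1.5-fold was simulated.

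The members and lists were chosen with earlier results of these data known. Named besides the members were up to 6 genes of each list with the smallest p among those that passed at 24 h or 72 h, and the 3 genes of mean CPM at least 5 most like each of Fos, Fosl1 and Egr1; Dusp4 was named after its values were seen, and 2 genes that the rule chose are not reported here.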

Additional observations from a re-analysis of the deposited data

Results flagged for a closer look

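The change from control differed between 72 h and 24 h of DPI in 5 of 10 members, by the edgeR test of that difference. This test is the direct comparison of the times, which 21.3% of all genes passed, 10.1% higher and 11.2% lower at 72 h. Egr1 differed by -1.25, Fos by -0.95 and Junb by -0.22 on the log2 scale, lower at 72 h than at 24 h. Ier3 differed by 0.49 and Jun by 0.32, higher at 72 h. Of the 5, the Egr1 difference held with every library left out, and the report names the libraries on which each other difference rested.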

How the results depend on the processing

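Of 540 alternative values of the members, 464 kept both direction and side of the threshold, 54 lost a call, 13 gained one and 9 turned sign, none of those 9 in a change that passed. The cause of these shifts was not tested, and fits with a library left out also had fewer libraries. For 24 h against control, 6 members passed, against 3 with upper quartile scaling, 3 at adjusted p under 0.01, 3 with a log2 change of at least 0.5 required, and 3 to 7 with a library left out. For 72 h against 24 h, 5 members passed, against 1 at adjusted p under 0.01, 2 with a log2 change of at least 0.5 required and 1 to 7 with a library left out. The 4 of 72 h against control stayed between 3 and 5 under every alternative. Over all genes, 3478 passed at 24 h, against 1904 at adjusted p under 0.01 and 1604 with the log2 minimum. At 72 h 1206 passed, against 627, 624 and, with only the 6 libraries compared, 774, and 736 to 1965 with a library left out (782, 736 and 801 without DPI 72 h replicates 1, 2 and 3, and 1965 without control replicate 2). For 72 h against 24 h, 3001 passed, against 1590, 1449 and 4660 in the same order, and 1953 (without DPI 24 h replicate 3) to 4729 (without control replicate 2). Fosb at 24 h turned to 0.035 with limma voom and ranged from -0.42 to 0.16 with a library left out, as did Ier2 at 72 h from -0.094 to 0.13 and Egr1 at 72 h from -0.18 to 0.063. No scaling or filter moved the median of all genes by more than 0.05 on the log2 scale. Same-numbered libraries did not deviate together (correlations -0.09 to 0.0027, and 0 of 9 libraries correlated best with its own number). No pairing by number was seen, though with 3 libraries a group a weak one could be missed. With the replicate block 5 members passed at 24 h, 4 at 72 h and 4 for 72 h against 24 h, without Fos at 24 h (adjusted p = 0.069) and Junb between the times (0.076), and Ier2 at 72 h was 0.0014. Depth limits Fos and Fosb, which had 28 to 85 counts a library.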

Other observations

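Relatives of the members were looked up after their values were seen. Egr2, a paralogue of Egr1, had 1.001 ± 0.256 CPM at 72 h, 3.75 ± 0.646 at 24 h and 1.94 ± 0.383 in controls (SD, n = 3), and the groups did not overlap. Its log2 change was 0.95 ± 0.28 at 24 h (SE, edgeR adjusted p = 0.029) and -1.90 ± 0.30 for 72 h against 24 h (edgeR adjusted p = 0.0010). The 24 h call was lost when DPI 24 h replicate 2 (adjusted p = 0.086) or 3 (0.119) was left out and at 0.065 and 0.079 without control replicates 2 and 3, and the change of -0.95 from control at 72 h did not pass (adjusted p = 0.084). Egr3 had 7.14 ± 0.523 CPM at 72 h, 8.0 ± 1.46 at 24 h and 4.62 ± 0.767 in controls, a log2 change of 0.79 ± 0.18 at 24 h (edgeR adjusted p = 0.0087) that held with each library left out.

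Klf2, a relative of Klf6 known for its response to flow in endothelium, moved in opposite directions at the times. It had 25.2 ± 1.85 CPM at 72 h, 11.2 ± 0.894 at 24 h and 17.9 ± 2.30 in controls (SD, n = 3). Its log2 change was -0.68 ± 0.12 at 24 h (SE, edgeR adjusted p = 0.0017) and 0.49 ± 0.11 at 72 h (edgeR adjusted p = 0.019). The 72 h call was lost when DPI 72 h replicate 1 (adjusted p = 0.086) or 2 (0.061) was left out and at 0.057 without either of control replicates 1 and 3. The difference between the times was 1.17 ± 0.12 (edgeR adjusted p = 4.10e-05).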
